A study of Mus musculus with 7 samples.

Results

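A set of 10 genes of the KEAP1-NRF2 pathway and of glutathione synthesis was followed in contracting mouse myotubes. They were chosen by symbol, with earlier results of these data known, so counts among them are not independent evidence of a direction. The genes were Nfe2l2, which encodes NRF2, Keap1, Sqstm1, Slc7a11, Gclc, Gclm, Gss, Gsr, Txnrd1 and Srxn1. All 10 were among the 26607 genes listed for each library, and all 10 were among the 19144 genes above 0 in at least 1 library that were tested. The libraries came from C2C12 myotubes, formed by fusion of an immortal mouse myoblast line, which stands for muscle without blood vessels, nerves or immune cells. The control group had 3 libraries, numbered 1, 3 and 4, without stimulation. The EPS group had 4 libraries, numbered 1 to 4, from myotubes given electrical pulse stimulation (EPS) for 24 h from the third day of differentiation, then rested for 1 h. The labels do not say whether libraries of a group came from separate cultures, so p-values measure only the spread between these libraries, which may be technical.

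NRF2 is a transcription factor whose amount is set largely by protein breakdown. KEAP1 binds NRF2 and presents it to a CUL3 ubiquitin ligase, and oxidants or electrophiles that react with cysteines of KEAP1 let NRF2 accumulate. NRF2 then pairs with a small MAF protein on antioxidant response elements near genes for glutathione synthesis, thioredoxin reduction and detoxification. Contracting muscle is a known source of reactive oxygen species, and glutathione is a main thiol that removes them. mRNA levels, which were measured here, do not report NRF2 protein.

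Levels are given in CPM, the reads of a gene scaled to the library's total, as the authors deposited them. Each CPM could be turned back into a whole number of reads within a tolerance of 0.01 reads, slightly wider for the highest counts. Library totals were between 16616917 and 22120641 reads in control and between 18830229 and 21892568 in EPS. The 10 genes had between 281 and 22645 reads per library, far above the 3 reads taken as the floor, a limit that covers counting error only. Control replicate 4 stood apart in low counts, where 359 genes had 1 to 5 reads, a class that held 2670 to 3181 genes elsewhere. Changes are log2 fold changes of EPS minus control on the log2(CPM + 1) scale, with SE, from limma over all tested genes. A gene passed the thresholds when its unadjusted P was under 0.01 and its change over 2-fold, and the adjusted p is that of Benjamini and Hochberg over all tested genes. The exact permutation tests were two-sided over the 35 splits of 3 against 4 libraries, whose smallest possible p is 0.0286.

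Gclm, Txnrd1 and Srxn1 rose past the thresholds in EPS, by 1.93, 1.55 and 1.55 on the log2 scale, and none of the 10 genes fell. They encode the modifier subunit of the first enzyme of glutathione synthesis, a thioredoxin reductase and a sulfiredoxin. These 3 of 10 stand beside 0.966% of all tested genes that passed the same thresholds upward. That background includes many genes of very low level, while each of the 10 had a mean of at least 23.9 CPM. With only genes of a mean of at least 1 CPM tested, 219 of 12256 rose past the thresholds, a larger share. Over all genes 185 rose and 84 fell, a split that was 130 to 122 after quantile normalization and 134 to 120 after scaling by median of ratios, with Gclm, Txnrd1 and Srxn1 past the thresholds under both. With the shared replicate number as a block, Srxn1 alone of the 10 genes passed the thresholds. Gclm and Txnrd1 then had limma P-values of 0.0112 and 0.0116. At an unadjusted limma P under 0.05 without a block, 6 genes rose, namely Gclm, Txnrd1, Srxn1, Gclc, Gsr and Sqstm1, against 8.4% of all tested genes. This count was 3 without control replicate 1, where Gclc, Gsr and Sqstm1 had limma P-values of 0.0523, 0.096 and 0.102, and 4 without EPS replicate 4, where Gsr and Sqstm1 missed it. Nfe2l2, Keap1, Slc7a11 and Gss had unadjusted P-values above 0.05. No member had a limma adjusted p under 0.05, which 0.0992% of genes reached upward. On recovered reads, Gclm, Txnrd1 and Srxn1 had an adjusted p under 0.05 both by the quasi-likelihood test of edgeR and by DESeq2, where 0.778% and 1.66% of the genes with an adjusted p in those tests reached it and were higher in EPS.

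The median log2 fold change of the 10 genes was 0.71, against 0.041 over all tested genes. Fewer cells expressing a gene and less RNA per cell cannot be told apart in such libraries. In 4 genes (Gclm, Srxn1, Txnrd1 and Sqstm1) every EPS library lay above every control library, which held for 7.76% of all tested genes, and in the other 6 the groups overlapped. EPS replicate 4 was the highest EPS library in 7 of the 10 genes, against 22.0% of the 9256 genes with a mean of at least 10 CPM. The same library had the highest summed level of 7 proliferation markers, 1182 CPM, where EPS replicates 1 to 3 had 409 to 830 and control 266 to 356, and 1 of these 7 markers rose past the thresholds. Its sum of 14 myotube markers was the lowest of the 7 libraries, at 9911 CPM, where EPS replicates 1 to 3 had 11322 to 14029 and control 13183 to 18134. All 14 myotube markers were detected, 1 fell past the thresholds, and 3 were lower in every EPS library than in every control library. The part of these markers in the results below was not tested.

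**Figure D1:**
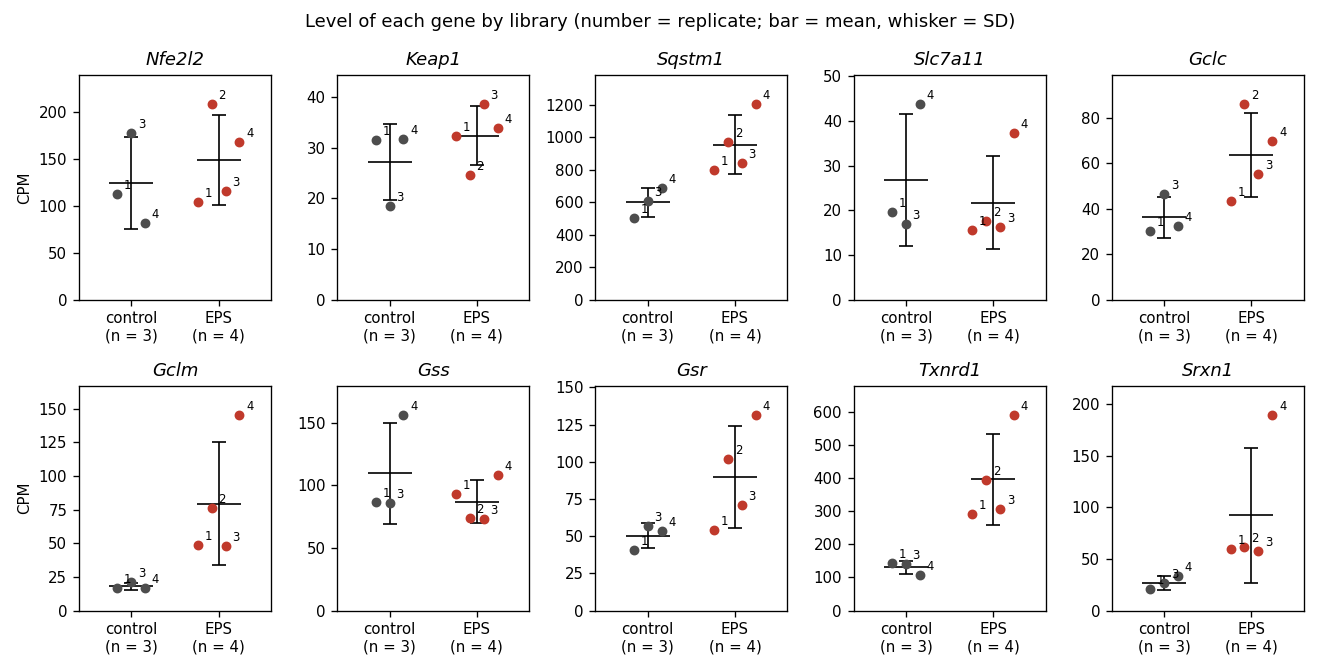
CPM of each of the 10 genes (vertical axes, from 0) in the 3 control libraries (grey) and the 4 EPS libraries (red), with the replicate number beside each point, the group mean as a bar and the SD as a whisker. In Gclm, Txnrd1, Srxn1 and Sqstm1 all red points lie above all grey points, and in Srxn1 EPS replicate 4, at 189 CPM, lies far above the other 3.

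The promoters of the 3 genes past the thresholds, and that of Slc7a11, are shown because the pathway's best-known DNA element can be looked for in them. They are the 250 bases before an annotated start site, from RefSeq on GRCm38.p6, written 5′ to 3′ on the gene's strand. Capitals mark TGACNNNGC, the core of the antioxidant response element, TGAGTCA, a core shared by AP-1 and NF-E2 proteins, or, in Slc7a11, TGATGCAA, a core of the composite element bound by ATF4. Each was searched on both strands, so a match may be printed as its reverse complement. The first and second overlap where TGACTCA is followed by GC, which was the case at none of the matches in these genes. Gclm lies at chr3:122245557-122270732 on the plus strand and its window is chr3:122245307-122245556. Txnrd1 has 3 windows, and the second, chr10:82858956-82859205 on the plus strand, is shown because it was the only one of them with a match. The window of Srxn1 is chr2:152105274-152105523 on the plus strand, and that of Slc7a11 is chr3:50443614-50443863 on the minus strand.
Gclm: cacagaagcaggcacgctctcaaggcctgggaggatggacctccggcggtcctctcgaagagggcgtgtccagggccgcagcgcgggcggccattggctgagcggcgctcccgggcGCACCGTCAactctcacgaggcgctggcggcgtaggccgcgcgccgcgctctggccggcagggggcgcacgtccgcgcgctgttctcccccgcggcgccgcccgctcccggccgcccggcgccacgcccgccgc
Txnrd1: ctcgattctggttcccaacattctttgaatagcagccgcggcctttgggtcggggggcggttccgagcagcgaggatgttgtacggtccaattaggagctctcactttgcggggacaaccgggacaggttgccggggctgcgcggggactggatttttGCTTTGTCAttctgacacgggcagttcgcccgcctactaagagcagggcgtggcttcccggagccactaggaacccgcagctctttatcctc
Srxn1: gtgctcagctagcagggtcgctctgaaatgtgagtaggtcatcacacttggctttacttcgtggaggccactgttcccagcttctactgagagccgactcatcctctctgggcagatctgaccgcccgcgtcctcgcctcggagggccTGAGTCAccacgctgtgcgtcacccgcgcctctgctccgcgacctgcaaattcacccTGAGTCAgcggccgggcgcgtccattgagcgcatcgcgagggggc
Slc7a11: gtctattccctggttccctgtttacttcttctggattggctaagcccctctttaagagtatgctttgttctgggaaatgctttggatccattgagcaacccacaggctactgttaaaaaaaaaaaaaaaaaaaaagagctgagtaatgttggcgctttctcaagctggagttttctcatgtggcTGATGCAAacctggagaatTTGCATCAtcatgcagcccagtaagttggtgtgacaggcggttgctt

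In windows of 300 bases, reaching 50 bases past the start site, 8 of the 10 genes had an entry, with 10 windows in all. Gclc and Gsr had none. TGACNNNGC was found in Gclm, starting 134 bases before the start site, and in the second window of Txnrd1, 92 bases before it. It was also found in Srxn1, 28 bases after the start site and so outside the printed stretch, and in Nfe2l2, 240 bases before. These letters occurred in 12.4% of 32851 such windows of all genes. Srxn1 held TGAGTCA at 102 and at 45 bases before its start site, a core found in 5.20% of windows. Slc7a11 held TGATGCAA at 66 and at 47 bases, on opposite strands, and this core was found in 0.895% of windows. Keap1, Sqstm1 and Gss had none of the 3 cores in their windows. A match of letters is a description and no measurement of binding.

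The catalytic and the modifier subunit of glutamate-cysteine ligase, the rate-limiting enzyme of glutathione synthesis, differed in the size of their change. Gclm, the modifier subunit, was measured at 16.4, 21.1 and 16.7 CPM in control replicates 1, 3 and 4 and at 48.5, 76.0, 47.6 and 145 CPM in EPS replicates 1 to 4. The lowest EPS library thus stood above the highest control library, and EPS replicate 4 was the highest. The means were 18.1 ± 2.66 CPM (SD, n = 3) and 79.4 ± 45.9 CPM (SD, n = 4), a ratio of 4.39. Its log2 fold change was 1.93 (SE 0.36), with an unadjusted P of 0.000526 and an adjusted p of 0.0941 in limma. It was the change of rank 27 from the top among the 19144 tested genes, and it was 1.59 without EPS replicate 4. In edgeR's quasi-likelihood test on recovered reads the adjusted p was 0.00118, and over all alternatives it was between 5.46e-06 and 0.523. The exact permutation p was 0.0286, the smallest possible.

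Gclc, the catalytic subunit (chr9:77754535-77794485, plus strand), was measured at 30.1, 46.5 and 32.3 CPM in control and at 43.3, 86.1, 55.3 and 69.9 CPM in EPS. EPS replicate 1 fell within the control range and the other 3 EPS libraries lay above it. The means were 36.3 ± 8.92 CPM (SD, n = 3) and 63.7 ± 18.5 CPM (SD, n = 4). Gclc had a log2 fold change of 0.77 (SE 0.25, 95% interval 0.20 to 1.35), with an unadjusted P of 0.0142 and an adjusted p of 0.277 in limma, and the exact permutation p was 0.0857. It passed neither the P nor the fold threshold.

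The ratio of Gclm to Gclc within a library does not move with the scaling of the libraries. It was 0.545, 0.454 and 0.517 in control and 1.12, 0.882, 0.861 and 2.08 in EPS, as ratios of CPM that are not corrected for transcript length. Every EPS library lay above every control library. On the log2 scale the mean ratio was -0.99 ± 0.14 (SD, n = 3) in control and 0.21 ± 0.59 (SD, n = 4) in EPS, a difference of 1.20 with an exact permutation p of 0.0286. The difference was 0.91 without EPS replicate 4, where the exact permutation test of 3 against 3 cannot go below 0.1.

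**Figure D2:**
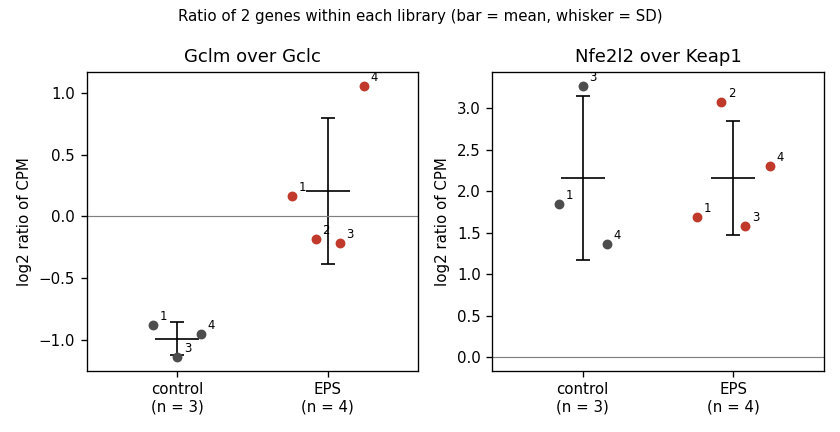
Log2 ratio of the CPM of Gclm to Gclc (left) and of Nfe2l2 to Keap1 (right) in each control library (grey) and EPS library (red), with replicate numbers, group means (bars) and SD (whiskers). The left-hand ratio is below -0.8 in all control libraries and above -0.3 in all EPS libraries, while the right-hand ratio is highest in control replicate 3 and EPS replicate 2.

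The other 2 enzymes of glutathione metabolism did not pass the thresholds. Gsr (chr8:33652523-33698163, plus strand), the reductase that returns oxidised glutathione to its reduced form, was measured at 40.8, 57.1 and 53.3 CPM in control and at 54.5, 102, 70.8 and 132 CPM in EPS. EPS replicate 1 lay inside the control range and the other 3 above it. The means were 50.4 ± 8.55 CPM (SD, n = 3) and 89.7 ± 34.2 CPM (SD, n = 4), with a log2 fold change of 0.76 (SE 0.29, 95% interval 0.098 to 1.41). The unadjusted P of Gsr was 0.0288 and its adjusted p 0.357 in limma, and the exact permutation p was 0.114. Gss (chr2:155563181-155592810, minus strand), glutathione synthetase, which adds glycine in the last step, was measured at 86.8, 86.1 and 156 CPM in control and at 92.8, 73.9, 73.0 and 108 CPM in EPS. Replicate 4 was the highest library in each group, and the groups overlapped. Gss had a log2 fold change of -0.29 (SE 0.24, 95% interval -0.85 to 0.26), with an adjusted p of 0.701 in limma and an exact permutation p of 0.371. Without control replicate 4 it was -0.010.

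Slc7a11 (chr3:49892526-50443614, minus strand) encodes the cystine-glutamate exchanger xCT, which brings in the cystine from which the cysteine of glutathione is made. It was measured at 19.5, 17.0 and 43.8 CPM in control and at 15.7, 17.6, 16.2 and 37.3 CPM in EPS. Replicate 4 of either group had about 2 times the level of the other libraries or more, and the remaining 5 libraries lay between 15.7 and 19.5 CPM. The log2 fold change of Slc7a11 was -0.26 (SE 0.39, 95% interval -1.15 to 0.63), with an adjusted p of 0.835 in limma and an exact permutation p of 0.486. The sign turned without control replicate 4, to 0.14. Slc7a11 is a known target of ATF4 as well as of NRF2, and of 30 ATF4 target genes 1 rose and 1 fell past the thresholds, with a median log2 fold change of -0.19. At an unadjusted limma P under 0.05, 2 were higher and 6 lower, where 3.21% of all tested genes were lower. Every EPS library lay below every control library in 6, Atf4 itself among them, against 2.85% of all tested genes, and above in 2. The number past both thresholds ran from 0 at a P threshold of 0.001 to 5 with edgeR's quasi-likelihood test or DESeq2. The gene that fell was Chac1, described with the glutathione genes below, and the one that rose was Gdf15, a stress cytokine, at 1.05 to 2.17 CPM in control and 3.72 to 12.7 CPM in EPS (log2 fold change 1.44, adjusted p 0.196 in limma).

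Txnrd1 (chr10:82833951-82897712, plus strand) encodes cytosolic thioredoxin reductase, which keeps thioredoxin reduced with electrons of NADPH. It was measured at 143, 141 and 108 CPM in control and at 291, 396, 307 and 591 CPM in EPS. Every EPS library had more than 2 times the level of the highest control library. The means were 130.4 ± 19.8 CPM (SD, n = 3) and 396 ± 138 CPM (SD, n = 4), a ratio of 3.04. The log2 fold change of Txnrd1 was 1.55 (SE 0.26, 95% interval 0.96 to 2.14), with an unadjusted P of 0.000233 and an adjusted p of 0.0712 in limma. This was the lowest P-value among the 10 genes. With edgeR's quasi-likelihood test the adjusted p was 0.0038, over all alternatives it was between 1.18e-05 and 0.523, and the exact permutation p was 0.0286.

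Srxn1 (chr2:152105516-152111376, plus strand) encodes sulfiredoxin, which repairs peroxiredoxins whose active cysteine has been overoxidised. It was measured at 20.5, 26.7 and 33.8 CPM in control and at 59.3, 62.0, 57.5 and 189 CPM in EPS. EPS replicates 1, 2 and 3 lay close together, and EPS replicate 4 was about 3 times as high. The means were 27.0 ± 6.65 CPM (SD, n = 3) and 92.1 ± 65.0 CPM (SD, n = 4), and the log2 fold change was 1.55 (SE 0.41, 95% interval 0.62 to 2.48). The unadjusted P of Srxn1 was 0.00443 and its adjusted p 0.185 in limma, and the exact permutation p was 0.0286. Without EPS replicate 4 its log2 fold change was 1.14, still past the thresholds. Srxn1 missed the P threshold without control replicate 1 (P of 0.017 in limma) and without control replicate 3 (P of 0.0113 in limma). Its adjusted p was 0.0148 with edgeR's quasi-likelihood test, and between 0.00267 and 0.51 over all alternatives.

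**Figure D3:**
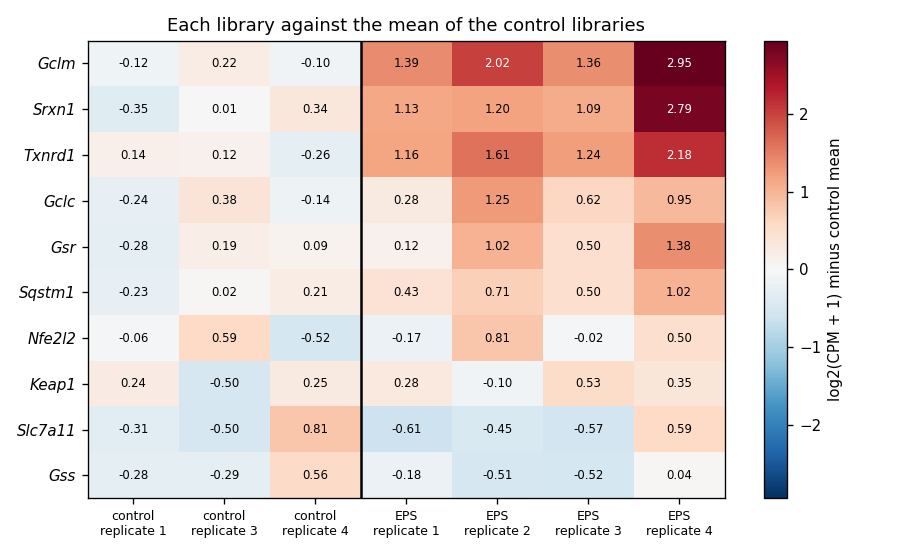
Log2(CPM + 1) of each gene (rows) in each library (columns) minus the mean of the control libraries, printed in each cell and coloured from blue (lower) to red (higher), with genes ordered by log2 fold change. EPS replicate 4 has the deepest red in Gclm (2.95), Srxn1 (2.79) and Txnrd1 (2.18), and Slc7a11 is red in replicate 4 of either group only.

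Neither Nfe2l2 nor Keap1 passed the thresholds. Nfe2l2 (chr2:75675513-75704641, minus strand) was measured at 113, 178 and 81.5 CPM in control and at 104, 208, 116 and 167 CPM in EPS. The groups overlapped, with EPS replicates 1, 3 and 4 inside the control range and EPS replicate 2 above it. The means were 124 ± 49.1 CPM (SD, n = 3) and 149 ± 48.0 CPM (SD, n = 4). The log2 fold change of Nfe2l2 was 0.28 (SE 0.31, 95% interval -0.43 to 0.99), with an adjusted p of 0.785 in limma and an exact permutation p of 0.514. Leaving out 1 library at a time gave 0.017 (without control replicate 4) to 0.57 (without control replicate 3).

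Keap1 (chr9:21229730-21239361, minus strand), the sensor that holds NRF2 back, was measured at 31.4, 18.4 and 31.7 CPM in control and at 32.3, 24.6, 38.6 and 33.9 CPM in EPS. Here control replicate 3 and EPS replicate 2, the highest libraries of their groups for Nfe2l2, were the lowest. Keap1 had a log2 fold change of 0.26 (SE 0.24, 95% interval -0.28 to 0.81), with an adjusted p of 0.722 in limma and an exact permutation p of 0.343. Leaving out 1 library at a time gave 0.016 (without control replicate 3) to 0.39. The log2 ratio of Nfe2l2 to Keap1 was 2.16 ± 0.99 (SD, n = 3) in control and 2.16 ± 0.69 (SD, n = 4) in EPS, a difference of 0.0066 with an exact permutation p of 1. As a ratio of CPM it was 9.65 in control replicate 3 and 8.46 in EPS replicate 2, against 2.57 to 4.93 in the other 5 libraries.

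Sqstm1 (chr11:50199366-50210827, minus strand) encodes p62, an autophagy receptor that binds KEAP1 and is itself a target of NRF2. It was measured at 505, 604 and 687 CPM in control and at 799, 970.0, 841 and 1203 CPM in EPS. All EPS libraries lay above all control libraries. The means were 599 ± 91.3 CPM (SD, n = 3) and 953 ± 182 CPM (SD, n = 4), and the log2 fold change was 0.66 (SE 0.24, 95% interval 0.11 to 1.21). Its unadjusted P was 0.0237 and its adjusted p 0.331 in limma, and the exact permutation p was 0.0286, so the separation of the groups came with a change below 2-fold.

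**Figure D4:**
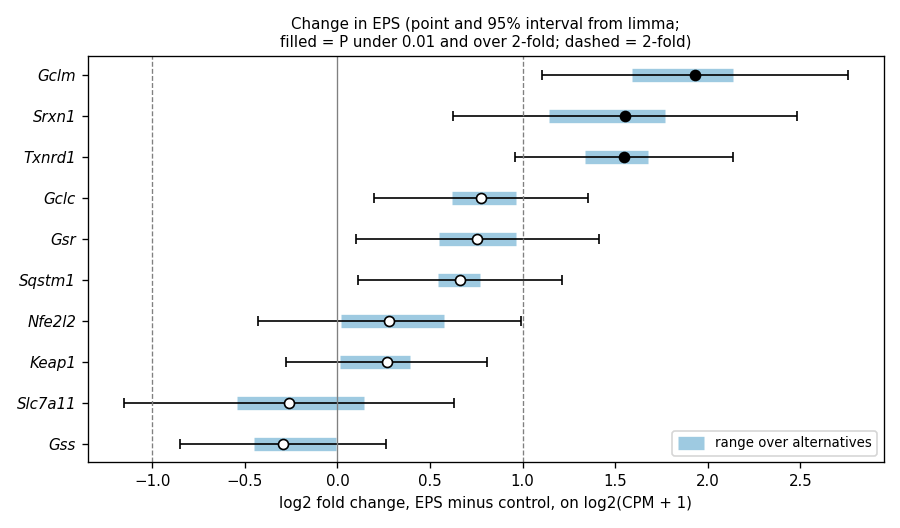
Log2 fold change of EPS minus control for each gene (point) with its 95% interval from limma (line), filled where the gene passed an unadjusted P under 0.01 and 2-fold, and the range over the alternative settings as a blue band. The 3 filled points are Gclm, Srxn1 and Txnrd1, and the bands of Nfe2l2, Keap1, Slc7a11 and Gss reach or nearly reach 0.

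Levels of different genes were compared per kb of exon, with exon lengths from GENCODE M21 on GRCm38. In control, Sqstm1 had the highest level, 178 ± 27.2 CPM per kb (SD, n = 3), followed by Nfe2l2 at 32.6, Gss at 18.5, Txnrd1 at 18.4, Gsr at 18.3, Gclc at 9.64, Srxn1 at 9.57, Keap1 at 5.79, Gclm at 2.87 and Slc7a11 at 1.92. Neighbours in this order did not overlap in their libraries between Sqstm1 and Nfe2l2, between Gsr and Gclc, and from Srxn1 through Keap1 to Gclm. Nfe2l2, Gss, Txnrd1 and Gsr each overlapped with the next of them, as did Gclc with Srxn1 and Gclm with Slc7a11. In EPS, Sqstm1 was again highest at 284 ± 54.1 CPM per kb (SD, n = 4), and Slc7a11 lowest at 1.56 ± 0.75, both apart from their neighbour. Between them came Txnrd1 at 55.9, Nfe2l2 at 39.2, Srxn1 at 32.7, Gsr at 32.6, Gclc at 16.9, Gss at 14.7, Gclm at 12.6 and Keap1 at 6.89 CPM per kb, each overlapping with the next. Per kb, Gclm was thus below Gclc in the mean of either group. Only in EPS replicate 4 was it above, at 23.1 against 18.6 CPM per kb.

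Around the 10 genes, 6 lists of related genes were counted, whose choice was made with earlier results of these data known. Among all 19144 tested genes, 185 rose and 84 fell past the thresholds. Of 17 regulators and partners of KEAP1 and NRF2, none passed the thresholds and the median log2 fold change was 0.19. Mafg, a small MAF partner of NRF2, was at 29.3 to 41.3 CPM in control and 45.7 to 49.5 CPM in EPS, with a log2 fold change of 0.37 (SE 0.16) and an adjusted p of 0.413 in limma. Rbx1, the RING subunit of the CUL3 ligase, had a log2 fold change of 0.51 (SE 0.24) and overlapping groups, with an adjusted p of 0.457 in limma.

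Of 27 further genes of glutathione supply, recycling and breakdown, 1 rose and 1 fell past the thresholds, and the median was 0.046. The count of 2 was 3 without control replicate 1 and 1 without control replicate 3, control replicate 4, EPS replicate 3 or EPS replicate 4. Esd rose by 2.48 on the log2 scale (SE 0.27), from 189 to 232 CPM in control to 843 to 1569 CPM in EPS, with an adjusted p of 0.0228 in limma. It encodes S-formylglutathione hydrolase, which frees glutathione in formaldehyde detoxification and does not synthesise it. Chac1, an enzyme that degrades glutathione and is an ATF4 target, fell by 1.17 on the log2 scale (SE 0.32), with an adjusted p of 0.198 in limma. It was at 33.1 ± 14.4 CPM (SD, n = 3) in control and 13.6 ± 3.92 CPM (SD, n = 4) in EPS, with all EPS libraries below all control libraries, and its log2 fold change was -0.86 without control replicate 4. Of 19 further genes of the thioredoxin and sulfiredoxin system, 1 rose, with a median of 0.12. That count was 2 without control replicate 3 or without EPS replicate 3, and 0 at a P threshold of 0.001. The gene that rose was Prdx6, a peroxiredoxin that uses glutathione, at 127 to 153 CPM in control and 224 to 461 CPM in EPS (log2 fold change 1.22, SE 0.25, adjusted p 0.107 in limma).

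The list that moved most was that of 34 NRF2 target enzymes other than the 10 genes, of which 33 were tested and 19 rose past the thresholds, 6 with an adjusted p under 0.05 in limma. None fell, every EPS library lay above every control library in 25, and the median log2 fold change was 1.12. Of all tested genes, 0.966% rose past the thresholds and 0.0992% were higher with an adjusted p under 0.05 in limma. Every EPS library lay above every control library in 7.76% of them. Some genes of the list were known to be high in EPS when it was written, so its count is not independent evidence of a direction. On the log2(CPM + 1) scale the largest changes were those of Aldh3a1, an aldehyde dehydrogenase, at 3.91 to 12.3 CPM in control and 74.0 to 1314 CPM in EPS, and of Nqo1, a quinone reductase, at 4.43 to 5.92 and 45.3 to 455 CPM. Their log2 fold changes were 5.52 (SE 0.82) and 4.51 (SE 0.62), with adjusted p of 0.0567 and 0.045 in limma. Gsta1 and Gsta4, glutathione transferases that consume glutathione, rose by 4.43 (SE 0.40) and 4.36 (SE 0.57), with adjusted p of 0.00909 and 0.0443 in limma. Without EPS replicate 4 the changes of Aldh3a1, Nqo1, Gsta1 and Gsta4 were 4.93, 3.95, 4.19 and 3.77. Gsta1 was at 0.233 to 0.452 CPM in control and 13.4 to 45.1 CPM in EPS, levels at which adding 1 understates the change. The count of 19 fell to 12 without control replicate 1, without control replicate 3 or without EPS replicate 4. It was 9 at a P threshold of 0.001 and 15 with the replicate block.

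Of 14 selective autophagy receptors and related genes beside Sqstm1, none passed the thresholds and the median was 0.18. Tfe3, a transcription factor of lysosomal genes, was at 37.0 to 44.2 CPM in control and 47.7 to 65.1 CPM in EPS, with a log2 fold change of 0.40 (SE 0.16) and an adjusted p of 0.383 in limma. Ulk1, a kinase that starts autophagy, overlapped between the groups with a log2 fold change of 0.48 (SE 0.21).

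**Figure D5:**
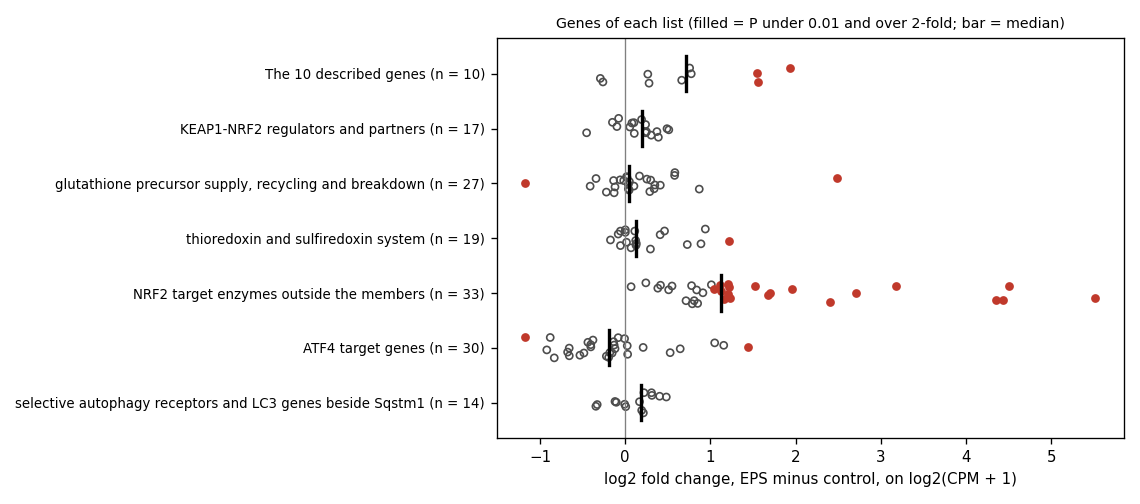
Log2 fold change of EPS minus control (horizontal axis) for the 10 described genes and for the tested genes of each list, filled where a gene passed an unadjusted P under 0.01 and 2-fold, with the median as a bar. The medians are 0.71 for the 10 genes and 1.12 for the NRF2 target enzymes, and between -0.19 and 0.19 for the other 5 lists.

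Likeness of profiles was measured by the root mean square distance of log2(CPM + 1) centred on the control mean, in which the size of a change counts. The genes whose profile over the 7 libraries was nearest to that of Gclm were Mmd, Slc48a1 and Hspb1, among 9256 genes with a mean of at least 10 CPM. Their distances were 0.22, 0.33 and 0.34, and their log2 fold changes 1.70, 1.96 and 1.56. Mmd was at 58.1 to 74.0 CPM in control and 131 to 394 CPM in EPS. Hspb1, a small heat shock protein of muscle, was at 114 to 149 CPM in control and 206 to 678 CPM in EPS. None of the 3 nearest genes of any of the 10 was itself one of the 10.

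Several of these genes share genomic positions with other genes in GENCODE M21 on GRCm38, and the strand setting of the authors' counting is not given in the sources used here. Keap1 overlaps the antisense gene Gm16754, Gclm overlaps Gm17494, Sqstm1 overlaps Mrnip, Gss overlaps Acss2, Gssos1 and Gssos2, Slc7a11 overlaps Gm37854, and Txnrd1 overlaps Gm38560 and Gm47073, all on the opposite strand. Slc7a11 also overlaps the pseudogenes Gm37826 and Gm2345 on that strand. On the same strand, Eid3 lies within Txnrd1, the pseudogene Gm6061 within Gclm, Gm37692 and Gm37498 within Slc7a11, and the small RNA genes Gm24996 and Gm24727 within Nfe2l2 and Gsr. Reads from such pairs may have been split, lost or counted for the other gene, although the authors used a directional library kit. The levels of these genes are uncertain to that extent. Macrophage, endothelial and neural markers were low in both groups. The sum of 5 macrophage markers was 1.08 to 2.17 CPM in control and 1.63 to 2.87 CPM in EPS, with Emr1 at 0 in all libraries. The 4 endothelial markers summed to 0.843 to 1.54 and 0.731 to 1.30 CPM, and the 6 markers of neurons or Schwann cells to 0.633 to 1.34 and 0.605 to 1.12 CPM, with Snap25 and Syt1 at 0 in all libraries. The sum of 5 fibroblast or mesenchymal markers was 74.8 to 116 CPM in control and 130.0 to 241 CPM in EPS, with 2 of 5 above in every EPS library and 1 of 5 below. Most of this sum was Ly6a, at 65.4 ± 19.0 CPM (SD, n = 3) and 143 ± 53.1 CPM (SD, n = 4), which rose past the thresholds. The sum of 6 myoblast markers was 597 to 806 CPM in control and 411 to 558 CPM in EPS. The part of these 2 lists in the results was not tested.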

How the data were processed

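RNA-seq of C2C12 myotubes, 3 control and 4 EPS libraries, was analysed. Per the labels, poly(A) RNA was sequenced as paired-end reads of 100 bp, and the submitters' processing notes name STAR 2.5.4b and GRCm38. The authors deposited CPM values, 1 per gene and library. The read counter, annotation and strand setting are not given in the sources used here. The deposited CPM were taken as log2(CPM + 1), which understates changes of low genes, and tested with limma 3.58.1 (empirical Bayes with a mean-variance trend, R 4.3.3) over all 19144 genes above 0 in at least 1 library, with all 7 libraries and no covariate. Whole reads recovered from the CPM were tested with edgeR 4.0.16 and DESeq2 1.42.0 as alternatives, which called more genes (629 and 585 past both thresholds, against 269 with limma). Of the recovered values, 100% were whole within 0.01 reads, a tolerance slightly wider for the highest counts. Further settings were quantile normalization, a mean of at least 1 CPM, pseudocounts of 0.5 and 0.1, scaling by median of ratios, a replicate block, a P threshold of 0.001 and leaving out each library. The tests were tried on simulated data. From each list, genes past the thresholds were named, at most 4 by size of change, or otherwise the 2 with the lowest P. The genes, lists and markers were chosen with earlier results of these data known. Sequences are from RefSeq.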

Additional observations from a re-analysis of the deposited data

Results flagged for a closer look

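Among 12 checks for a library far from the others of its group, 1 for each of the 10 genes and of the 2 ratios over the 4 EPS libraries, 2 stood out by Dixon's test at the 95% level, and chance alone gives about 1 in 20. Srxn1 was at 189 CPM in EPS replicate 4, against 57.5 to 62.0 CPM in EPS replicates 1 to 3. Slc7a11 was at 37.3 CPM in EPS replicate 4, against 15.7 to 17.6 CPM in the others. The same library had the highest sum of proliferation markers, 1182 CPM, and the lowest sum of myotube markers, 9911 CPM, and their part in these 2 values was not tested. This check was not run on the 3 control libraries.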

How the results depend on the processing

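Each result was recomputed under up to 17 alternatives. The number of the 10 genes past both thresholds was 3 in all but the replicate block, where it was 1 (Srxn1), leaving out a library, where it was between 2 and 3, and a P threshold of 0.001, where it was 2. The number with an adjusted p under 0.05, 0 in limma, was 2 (Gclm and Txnrd1) with a pseudocount of 0.1 or a minimum mean of 1 CPM, 3 with edgeR's quasi-likelihood test, 3 with edgeR's exact test without TMM, 3 with DESeq2, and 0 whichever library was left out. Over all genes, 269 passed both thresholds, against 601 with a pseudocount of 0.1, 629 with edgeR's quasi-likelihood test, 688 with its exact test, 585 with DESeq2, 161 with the replicate block and 106 at a P threshold of 0.001. At that threshold 10 genes of the 6 lists passed. Quantile normalization and median-of-ratios scaling moved the median over genes with at least 1 CPM on average from 0.10 to 0.0052 and -0.0048, and that of the 10 genes from 0.71 to 0.68 and 0.60.

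Leaving out a library gave log2 fold changes of Slc7a11 between -0.54 and 0.14, differences in the log2 ratio of Gclm to Gclc between 0.91 and 1.34, and in that of Nfe2l2 to Keap1 between -0.39 and 0.56. The exact test of a ratio cannot go below 0.0667 with 2 libraries against 4 or 0.1 with 3 against 3, so no omission could pass 0.05. For Gclm to Gclc the exact p was at that floor in each case but 1, without control replicate 3, where it was 0.133.

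Both groups carry replicate numbers 1, 3 and 4. Deviations of same-numbered libraries from their group means, over 12256 genes, correlated at 0.25, -0.45 and 0.068. With so few libraries, these values cannot decide whether the numbers pair the libraries. With the replicate block the log2 fold change was 1.90 for Gclm and 1.53 for Txnrd1, with P of 0.0112 and 0.0116 in limma, and the differences in ratio were 1.32 for Gclm to Gclc and -0.30 for Nfe2l2 to Keap1, over 3 pairs whose exact p cannot go below 0.25. With it, 0 further genes of the thioredoxin system passed both thresholds. The causes were not tested. The 10 genes had at least 281 reads per library, and no setting with fewer reads was run.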
